A study of Mus musculus with 2 samples.

Results

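The 32 genes described here make up the identity, antigen receptor and antibody secretion programmes of B cells and plasma cells. They were taken as a list of gene symbols, matched through the current symbol of each probe's RefSeq identifier or the gene name in the array file, and all 32 of the 26587 named genes had at least 1 probe. The expression data compare 2 pools of sorted mouse cells. The colon pool consisted of CX3CR1high CD11b+ CD11c+ cells sorted out of the large intestinal lamina propria, the connective tissue below the gut epithelium, of CX3CR1gfp/+ mice, in which green fluorescent protein replaces 1 allele of the fractalkine receptor gene. The blood pool consisted of Ly6c+ CD11b+ monocytes of C57BL/6J mice. Mouse age and any treatment of either group are not given in the sources used here. In the design text n is 10 on the colon side and 6 on the blood side, with no word on what it counts.

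Both pools were hybridised together to 2 two-colour arrays of 60-base probes, with the colon pool in Cy5 on array 1 and in Cy3 on array 2. Both arrays are labelled as the same comparison, the second as a dye swap, and were counted as 1 replicate. Whether they carry the same extracts is not stated. There is thus no test, and an SD covers only the spread between the 2 arrays. Tissue, genotype and cell isolation all differed between the pools and cannot be told apart. Neither gate contains a B cell marker, and the sorted pools are bulk samples, so that fewer cells of a type and less RNA per cell cannot be told apart.

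B cells recognise antigen through a membrane immunoglobulin that is paired with the signalling chains Cd79a and Cd79b. Engagement of this receptor activates Src family kinases and Syk, the adaptor Blnk gathers the signalling enzymes, and Btk passes the signal on to phospholipase C gamma. B cell identity is held by Pax5 and Ebf1, whereas Prdm1, which encodes Blimp-1, shuts down that programme as the cell becomes an antibody-secreting plasma cell with an enlarged endoplasmic reticulum. The lamina propria of the gut is rich in plasma cells that secrete dimeric immunoglobulin A, which is held together by the joining chain. Several of the listed genes, among them Blnk, Btk, Prdm1, Cd38 and Cd72, are also known to be expressed in myeloid cells, so the list does not belong to the B lineage alone.

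The promoter sequences of 4 genes are shown because each gene was higher in the colon pool under every scaling tried and each holds a short motif tied to B cell or secretory gene control. Each sequence is the 250 bases before the annotated start in RefSeq (GRCm38.p6), written 5′ to 3′ in the direction of the gene, with the motif in capitals. The octamer ATGCAAAT, which Oct factors such as the product of Pou2f2 bind with the coactivator encoded by Pou2af1, is on the reverse strand at position -130 of Blnk (chr19:40994222-40994471, minus strand) and at position -45 of Vpreb3 (chr10:75948050-75948299, plus strand). The PU.1 and Spi-B core GAGGAAGT is on the reverse strand at position -49 of Cd72 (chr4:43454627-43454876, minus strand). The unfolded protein response core TGACGTG is on the forward strand at position -61 of Pou2af1 (chr9:51213440-51213689, plus strand).
Blnk: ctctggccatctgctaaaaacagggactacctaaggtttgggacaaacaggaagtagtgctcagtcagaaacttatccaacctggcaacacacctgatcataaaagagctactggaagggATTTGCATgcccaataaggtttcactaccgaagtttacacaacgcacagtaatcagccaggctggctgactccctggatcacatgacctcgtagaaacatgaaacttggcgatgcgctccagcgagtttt
Vpreb3: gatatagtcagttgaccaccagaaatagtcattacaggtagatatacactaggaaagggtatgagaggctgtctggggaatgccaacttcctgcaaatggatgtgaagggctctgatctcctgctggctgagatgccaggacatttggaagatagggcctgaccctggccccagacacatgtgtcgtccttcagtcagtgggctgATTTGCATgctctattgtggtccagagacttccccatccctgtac
Cd72: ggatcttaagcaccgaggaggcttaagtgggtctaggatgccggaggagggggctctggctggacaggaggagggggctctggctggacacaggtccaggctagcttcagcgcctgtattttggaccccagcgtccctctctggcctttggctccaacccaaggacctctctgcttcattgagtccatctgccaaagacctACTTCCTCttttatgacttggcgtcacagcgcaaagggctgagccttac
Pou2af1: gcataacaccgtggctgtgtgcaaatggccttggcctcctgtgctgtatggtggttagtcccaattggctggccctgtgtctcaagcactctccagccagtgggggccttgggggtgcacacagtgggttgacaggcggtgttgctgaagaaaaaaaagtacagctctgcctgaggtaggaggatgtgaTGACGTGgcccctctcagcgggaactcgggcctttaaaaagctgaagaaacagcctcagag

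Of the 32 genes, 28 had a promoter entry, and Cd79b, Blk, Mzb1 and Sec11c did not. Windows from 250 bases before to 50 bases after the start were searched on both strands, and the same search was made over 27025 genes. The octamer was in 3 of the 28 members (Blnk, Vpreb3 and Mef2b), against 1.97% of all genes. The EBF motif CCCNNGGG was in 4 (Cd22, Spib, Bank1 and Sdc1), against 15.4%. The PU.1 and Spi-B core was in 1, against 3.69%, and the unfolded protein response core in 2 (Pou2af1 and Fkbp11), against 2.22%. The general elements CCAAT and TATAAA were in 12 and 3 members, against 41.1% and 15.7% of all genes. No match of one motif shared bases with a match of another. Matches of 1 motif overlapped each other for CCCNNGGG in Spib, for CCAAT in Pou2af1 and Fcrla, and for TATAAA in Bank1. A match is a description of the window only.

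Of the 32 genes, 29 were measured, meaning that both arrays showed 1 and the same pool well above background, and 3 were not (Pax5, Blk and Fkbp11). In the colon pool 19 genes were higher, none was lower and 10 were neither, where higher means a log2 ratio of at least 1, or 2-fold, on each array. Among all 15472 measured genes 14.3% were higher by the same rule, 4.48% were lower and 18.8% were one or the other. The median log2 ratio of the 29 genes was 1.35, beside 0.06 for all measured genes, and 25 of the 29 lay above 0. All 29 were well above background in the colon pool on both arrays, and 25 were so in the blood pool. The SD between arrays was at most 0.42 on the log2 scale, with a median of 0.09.

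Normalised intensities below are linear, after background correction with an offset of 50 that draws the ratios of dim genes towards 0. For a single gene they are set against each other only between pools at 1 probe, and sums over marker lists are compared only between pools. When the arrays were centred on their median in place of the intensity-dependent loess, the median of all measured genes moved from 0.06 to -0.28 and 9 of the 29 genes passed the rule, as did 7.32% of all measured genes. The 10 that no longer passed were Cd22, Cd79b, Spib, Bank1, Faim3, Sdc1, Prdm1, Creld2, Fcrla and Ralgps2, and each fell short on array 2. Among bright members, this placed Blnk at 5.59, Jchain at 4.44, Cd72 at 3.77 and Prdm1 at 1.90. With the scanner software's own ratios, 21 members and 20.4% of all measured genes were higher, and 1 member (Pou2f2) was lower. Several members that were dim in the blood pool moved up by over 1.5-fold with these ratios. Among the called ones, Ebf1 was at 3.02, Pou2af1 at 3.62, Vpreb3 at 3.13, Fcrla at 2.62, Cd38 at 4.56, Mzb1 at 4.46 and Derl3 at 4.45. The share of higher genes among all called genes was 76.1% here and 60.8% with the software's ratios.

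**Figure D1:**
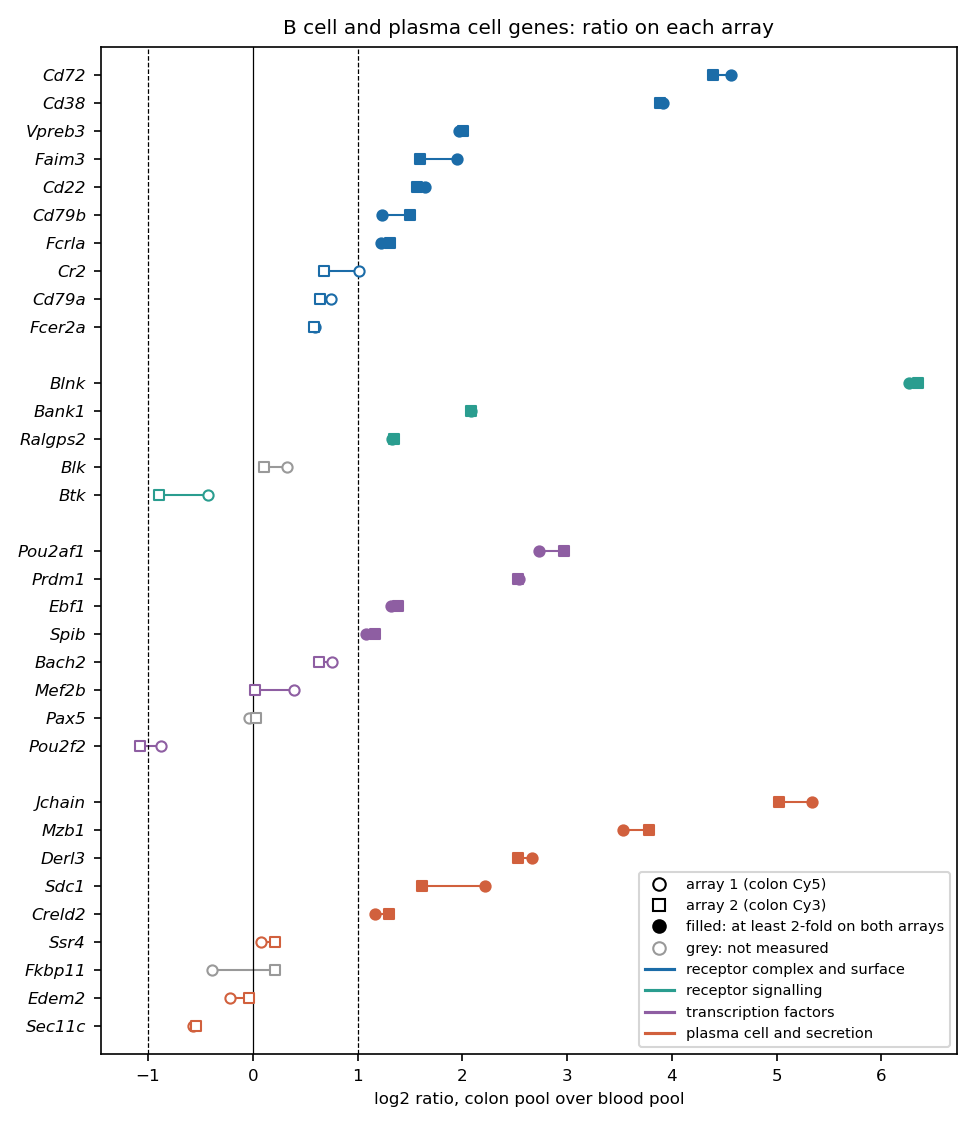
Log2 ratio, colon over blood (horizontal axis), for the 32 genes by role, with a circle for array 1 and a square for array 2; filled symbols mark genes at least 2-fold apart on both arrays, grey symbols genes that were not measured, and dashed lines the 2-fold limits. The 19 filled genes all lie to the right, from Spib at 1.12 to Blnk at 6.30, and no gene is filled on the left.

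Among the receptor complex and surface genes, 7 of 10 were higher, with a median log2 ratio of 1.49. Cd79b, a signalling chain of the B cell receptor, read 2518 and 2805 in the colon pool and 1076 and 992 in the blood pool on arrays 1 and 2. Its log2 ratio was 1.36 ± 0.19 (SD, 2 arrays), or 2.57-fold, and the pools did not overlap. After median centring its ratio was 1.49 on array 1 and -0.12 on array 2, so its direction on array 2 rested on the scaling. Its partner Cd79a was much closer to background. It read 132 and 110.5 in the colon pool against 78.7 and 70.8 in the blood pool, where it was not well above background on either array. The log2 ratio was 0.70 ± 0.07, or 1.62-fold as measured, and did not pass the rule. The probe of Cd79a lies at chr7:25684357-25684614 (mm9, plus strand) and its 60 bases span 258 bases of the genome; they are shown since this obligate receptor chain was so dim.
Cd79a: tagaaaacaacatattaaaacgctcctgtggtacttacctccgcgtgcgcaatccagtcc

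Cd22, a sialic acid-binding inhibitory coreceptor, read 540 and 457 in the colon pool and 173 and 153 in the blood pool (probe at chr7:31651249-31651308, mm9). Its log2 ratio was 1.61 ± 0.05, or 3.05-fold, and all colon readings were above all blood readings. Cr2, the complement receptor CD21, read 164 and 134 against 81.8 and 83.9. It was 1.01 on array 1 and 0.68 on array 2, so it missed the rule on array 2, and its other probe gave 0.10 and 0.31. Fcer2a, the low-affinity IgE receptor CD23, read 136 and 130 against 90.3 and 86.8, a log2 ratio of 0.59 on array 1 and 0.58 on array 2. Cr2 and Fcer2a, both marks of mature follicular or marginal zone B cells, thus did not pass the rule. With the software's ratios Cr2 reached 2.37 and passed it, but its other probe was at 0.42. Fcer2a reached a mean of 1.22 with these ratios and still did not pass.

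Cd72, a C-type lectin-like protein that restrains receptor signals, had the largest difference among the surface genes. It read 11310 and 11380 in the colon pool and 480 and 542 in the blood pool. The log2 ratio was 4.47 ± 0.12, or 22.2-fold, and a further probe gave 4.78 and 4.73. Cd38, an ectoenzyme that turns NAD into cyclic ADP-ribose, read 1743 and 1578 against 115 and 106. Its ratio was 3.91 ± 0.02, or 15.0-fold. These strong signals stood apart from the Cd22 and Cd79b differences of 3.05-fold and 2.57-fold.

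Vpreb3, a small immunoglobulin domain protein related to the surrogate light chain, read 397.5 and 326 in the colon pool and 101 and 80.8 in the blood pool, a ratio of 1.99 ± 0.03. Faim3, the Fc receptor for immunoglobulin M, read 605 and 447 against 156 and 147, a ratio of 1.78 ± 0.25. Fcrla, an intracellular Fc receptor-like protein of B cells, read 200 and 186 against 85.7 and 75.1, a ratio of 1.26 ± 0.06. All 3 were dim in the blood pool, and in each the colon readings lay above the blood readings on both arrays.

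**Figure D2:**
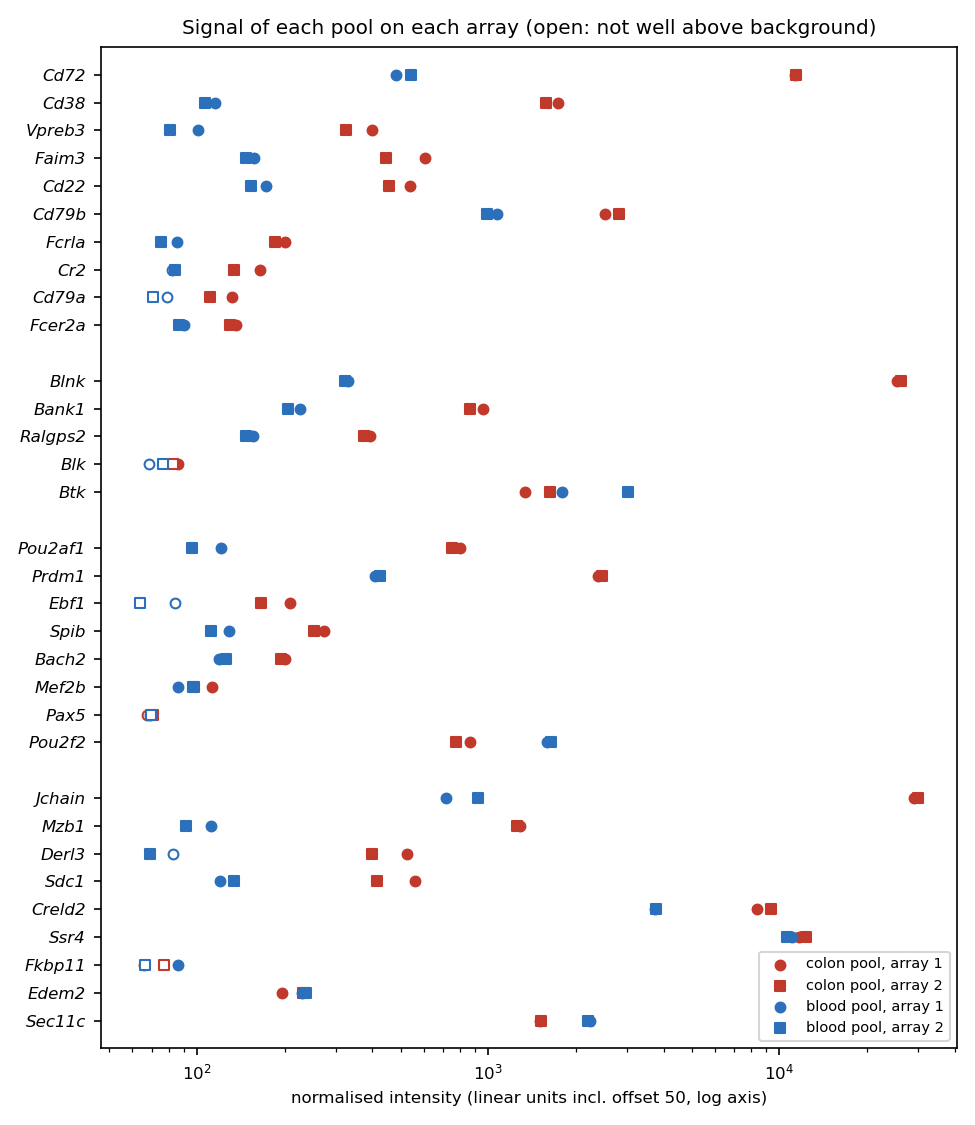
Normalised intensity (linear units on a log axis) of each gene in the colon pool (red) and the blood pool (blue), with circles for array 1 and squares for array 2 and open symbols where the signal was not well above background. Cd79a and Ebf1 are open in the blood pool on both arrays and Pax5 is open in both pools, whereas Blnk in the colon pool reads 25250 and 26250.

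Of the 5 receptor signalling genes 4 were measured and 3 were higher. Blnk, the adaptor that links Syk to phospholipase C gamma, had the largest ratio of all 32 genes. It read 25250 and 26250 in the colon pool and 329 and 323 in the blood pool (probe at chr19:41003426-41003485, mm9). The log2 ratio was 6.30 ± 0.06, or 79.0-fold, and after median centring it was 6.54 on array 1 and 4.65 on array 2. The octamer in its promoter is printed above.

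Bank1, a scaffold that links the kinase Lyn to calcium release, read 957 and 867 in the colon pool and 227 and 205.5 in the blood pool. Its ratio was 2.08 on both arrays, or 4.22-fold, and its other probe gave 1.83 and 1.98. Ralgps2, an exchange factor for the GTPase RalA, read 393 and 373 against 156 and 147, a ratio of 1.34 ± 0.01. With loess, both genes kept the 2 pools apart by more than the spread between arrays. After median centring Bank1 was 2.34 on array 1 and 0.82 on array 2, and Ralgps2 was 1.60 and 0.40.

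Btk, the kinase that acts with Blnk, did not follow it. It read 1334 and 1636 in the colon pool and 1795 and 3024 in the blood pool. The log2 ratio was -0.66 ± 0.32 (-0.43 and -0.89), its other probe gave -0.50 and -0.93, and neither passed the rule. The readings of the colon pool were below those of the blood pool on both arrays. Blk, a Src family kinase of B cells, was well above background only in the colon pool on array 1. It read 85.8 and 82.4 against 68.5 and 76.6, and was not counted as measured.

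Of the 8 transcription factors 7 were measured, 4 of them were higher, and the median was 1.12. Pou2af1, the octamer coactivator that germinal centres need, read 802.5 and 752 in the colon pool and 121 and 96.1 in the blood pool (probe at chr9:51048121-51048180, mm9). Its ratio was 2.85 ± 0.17, or 7.21-fold. Prdm1, the repressor that drives cells to the plasma cell fate, read 2373 and 2455 against 407.5 and 424. It was 2.54 ± 0.01, or 5.81-fold, and after median centring its ratio was 2.80 on array 1 and just under the limit on array 2. With loess, the gap between pools in both genes was many times the spread between arrays. After median centring Pou2af1 was 3.0 on array 1 and 1.93 on array 2.

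Ebf1, which specifies the B lineage with Pax5, read 208 and 166 in the colon pool. In the blood pool it read 83.7 and 63.5, not well above background on either array. The log2 ratio was 1.35 ± 0.05, or 2.55-fold as measured, and 1.17 on array 2 after median centring. Ebf1 is also known to be expressed in stromal and adipose cells. Spib, an Ets factor of B cells and plasmacytoid dendritic cells, read 273 and 251 against 129 and 112, a ratio of 1.12 ± 0.06, the smallest of the 19.

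Pax5 was not well above background in either pool on either array with either of its probes. The brighter probe read 67.3 and 70.8 in the colon pool and 69.0 and 69.4 in the blood pool, so no level or ratio could be given. Both probes are shown, since this gene defines the B lineage. The first spans 32555 bases of the genome (chr4:44550354-44582908, mm9, minus strand) and the second lies at chr4:44658421-44658480.
Pax5, first probe: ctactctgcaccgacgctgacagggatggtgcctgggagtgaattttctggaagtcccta
Pax5, second probe: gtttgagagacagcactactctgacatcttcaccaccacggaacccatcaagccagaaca

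Pou2f2, which encodes the octamer-binding factor Oct-2, was the member with the lowest ratio. It read 864 and 777 in the colon pool and 1588 and 1639 in the blood pool. The log2 ratio was -0.98 ± 0.14, with -0.88 on array 1 and -1.08 on array 2, so array 1 missed the rule and array 2 met it. The other probe, which spans 1163 bases of the genome, gave -1.28 and -0.99. The factor and its coactivator Pou2af1 therefore had ratios of opposite sign, -0.98 and 2.85. The 2 probes of Pou2f2 are at chr7:25878678-25879840 and chr7:25877735-25877794 (mm9, minus strand).
Pou2f2, spanning probe: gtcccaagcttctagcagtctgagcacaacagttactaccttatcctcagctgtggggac
Pou2f2, brighter probe: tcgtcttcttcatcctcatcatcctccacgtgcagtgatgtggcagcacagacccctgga

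Bach2, a repressor that delays the plasma cell fate and opposes Prdm1, read 201 and 195 in the colon pool and 119 and 126 in the blood pool. Its ratio was 0.69 ± 0.09, and 0.30 and 0.28 at its other probe. Mef2b, a germinal centre factor, read 113 and 97.7 against 86.0 and 96.6, a ratio of 0.20 ± 0.27. Neither passed the rule, and for Mef2b the SD was larger than the mean.

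Among the 9 plasma cell and secretion genes, 8 were measured, 5 were higher and the median was 1.58. Jchain, the joining chain of polymeric immunoglobulin A and M, read 28990 and 29940 in the colon pool and 716 and 920 in the blood pool (probe at chr5:88949919-88949978, mm9). Its log2 ratio was 5.18 ± 0.22, or 36.3-fold, second to Blnk among the 32. Mzb1, a chaperone of immunoglobulin assembly in the endoplasmic reticulum, read 1287 and 1259 against 112 and 91.9. It was 3.65 ± 0.18, or 12.6-fold. Blnk, Jchain, Cd72, Cd38 and Mzb1 were the 5 members at least 8-fold higher on both arrays.

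Derl3, a channel component of endoplasmic reticulum-associated degradation that is rich in plasma cells, read 526 and 398 in the colon pool and 82.6 and 68.9 in the blood pool. Its ratio was 2.60 ± 0.10, or 6.07-fold, and its blood signal was well above background on array 2 alone. Sdc1, the heparan sulphate proteoglycan CD138 that marks plasma cells and also epithelium, read 559 and 414 against 120 and 134. Its ratio of 1.92 had the widest spread of the measured members (2.22 and 1.62, SD 0.42). Creld2, a stress-induced disulphide isomerase-like protein, read 8398 and 9332 against 3727 and 3778, a ratio of 1.24 ± 0.09, and after median centring 1.47 on array 1 and -0.49 on array 2.

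The secretory genes Ssr4, Sec11c and Edem2 did not differ by 2-fold. Ssr4, a subunit of the translocon-associated complex, read 11720 and 12360 in the colon pool and 11060 and 10650 in the blood pool, a ratio of 0.15 ± 0.09 that turned to -0.63 after median centring. Sec11c, the catalytic subunit of signal peptidase, read 1505 and 1512 against 2241 and 2199, a ratio of -0.56 ± 0.02. Edem2, a mannosidase of glycoprotein quality control, read 196.5 and 231 against 229 and 237, a ratio of -0.13 ± 0.13. Fkbp11, a prolyl isomerase of secretory tissues, was well above background only in the blood pool on array 1 and was not counted as measured. Jchain, Mzb1, Derl3 and Sdc1 thus stood at 1.92 to 5.18, Creld2 at 1.24, and Ssr4, Edem2 and Sec11c between -0.56 and 0.15.

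**Figure D3:**
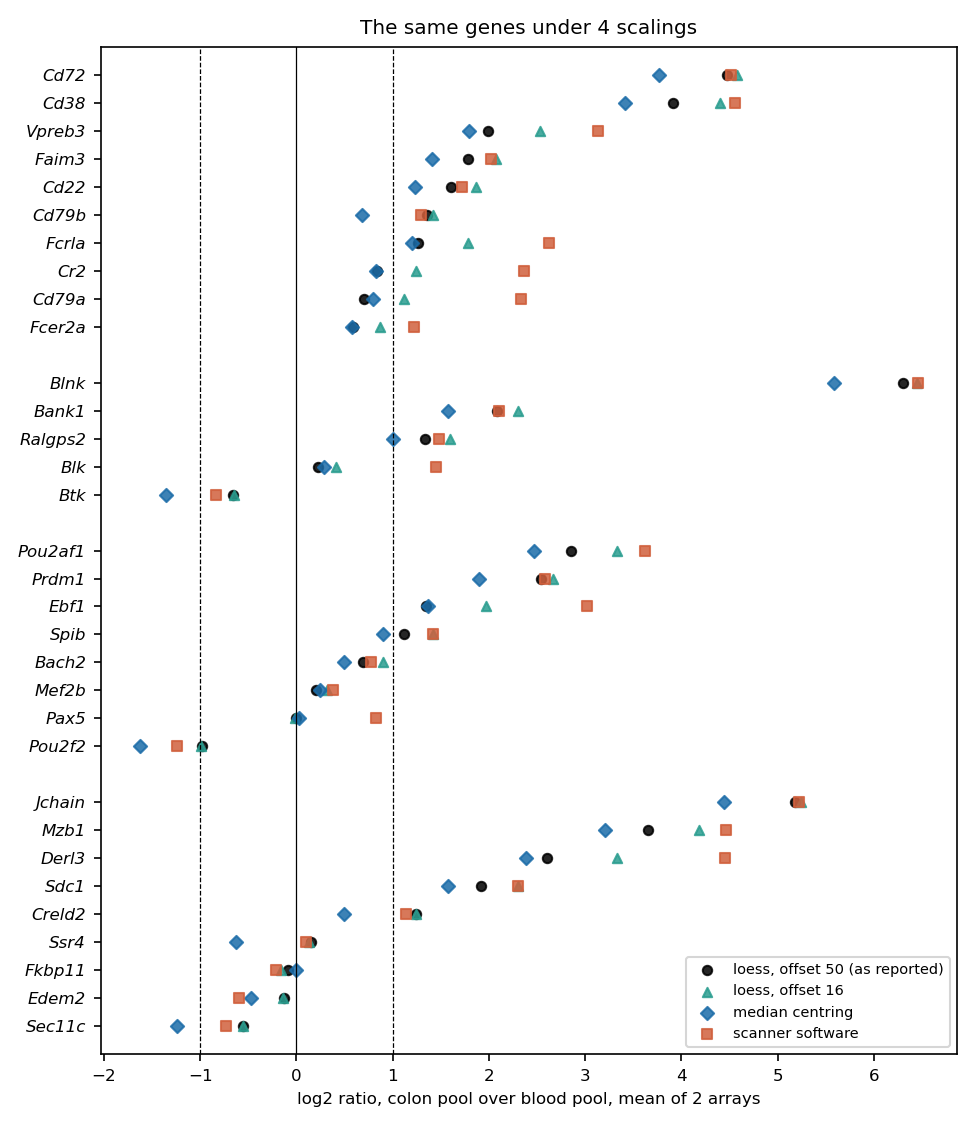
Log2 ratio, colon over blood, mean of both arrays (horizontal axis), for the 32 genes under 4 scalings: loess with an offset of 50 or 16, median centring, and the scanner software's ratios. Dim genes such as Cd79a, Cr2 and Derl3 move right with the software's ratios, to 2.33, 2.37 and 4.45, and bright genes such as Creld2 and Ssr4 move left with median centring, to 0.49 and -0.63.

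Immunoglobulin genes, which are not among the 32, were represented by 9 probes under 7 names. Of these, 3 were measured and all 3 were higher in the colon pool. An Ighg probe for an immunoglobulin G heavy chain (chr12:114568594-114568653, mm9) read 492 and 390 in the colon pool against 82.1 and 70.1 in the blood pool, a ratio of 2.53 ± 0.08. For the kappa variable gene Igk-V32, 1 probe gave 3.00 ± 0.20. The other, whose blood signal was not well above background on either array, measured 8.07-fold higher (log2 ratio 3.01 ± 0.04). The other Ighg probe and those named Igh-6, Igh-VJ558, Igk-C, Igk-V19-14 and Igkv15-97 were not measured by this rule. Probes of such near-identical gene families can share transcripts.

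Other genes of the same programmes were taken from 7 further lists, chosen with earlier results of these data known. The median of 24 other B cell surface genes was 0.67, with 11 of them higher and 1 lower, and 7 higher after median centring. Ms4a1, which encodes the B cell marker CD20, was higher by 1.78 ± 0.03, but only by 0.82 on array 2 after median centring. Cd81, a tetraspanin that many cells express, had the largest ratio of that list, 5.25 ± 0.10.

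The median of 27 other receptor signalling genes was 0.18, with 6 of them higher and 5 lower. After median centring the median was -0.53, with 2 higher and 5 lower. Pik3r1, a regulatory subunit of phosphoinositide 3-kinase, was higher by 1.86 ± 0.18, but only by 0.43 on array 2 after median centring. Plcg2, the phospholipase that Blnk and Btk activate, was lower, at -1.68 ± 0.09, as was the phosphatase gene Ptpn6, at -2.16 ± 0.01. Blnk was thus high in the colon pool while its partners Btk and Plcg2 had negative ratios. The same genes serve receptor signalling in myeloid cells.

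The median of 23 other transcription factors was 0.30, with 2 of them (8.70%) higher, beside 14.3% of all measured genes, and 3 lower. After median centring the median was -0.09, with none higher and 3 lower. The plasma cell factors Irf4 and Xbp1 did not pass the rule, at 0.54 ± 0.02 and -0.03 ± 0.12, beside 2.54 for Prdm1. Ikzf1 and Bcl11a, early lymphoid factors, were lower, at -2.11 ± 0.00 and -2.79 ± 0.26. Zbtb32, a repressor found in plasma cells, was higher by 1.93 ± 0.08, but only by 0.92 on array 2 after median centring.

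Among 8 measured genes of the germinal centre and class switching, 1 was higher, with a median of 0.16. Of 6 measured genes of early B cell stages 4 were higher (Il7r, Sox4, Cd93 and Bok), Cd93 lost its call after median centring, and Il7r, the interleukin-7 receptor chain shared with T and innate lymphoid cells, led with 4.10 ± 0.18. Of 17 survival and homing genes 11 were higher and 2 were lower, or 8 and 2 after median centring. The lower genes were the integrin genes Itgb7, at -2.89 ± 0.11, and Itga4, at -1.67 ± 0.27. The largest ratios were those of the cytokine and chemokine genes Il10 (5.29 ± 0.11), Il6 (4.98 ± 0.13) and Cxcl12 (4.63 ± 0.16). Tnfrsf17, which encodes the plasma cell survival receptor BCMA, measured 5.22-fold higher (log2 ratio 2.38 ± 0.06). Its blood signal was not well above background on either array, and its ratio on array 2 after median centring was 1.83. Among 43 other secretion genes of the endoplasmic reticulum, 6 (13.9%) were higher and none was lower, with a median of 0.15. That share is near the 14.3% of all measured genes. After median centring 1 was higher and the median was -0.48. Hspa5, the chaperone BiP, stood at 2.62 ± 0.48, but at 0.18 on array 2 after median centring.

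**Figure D4:**
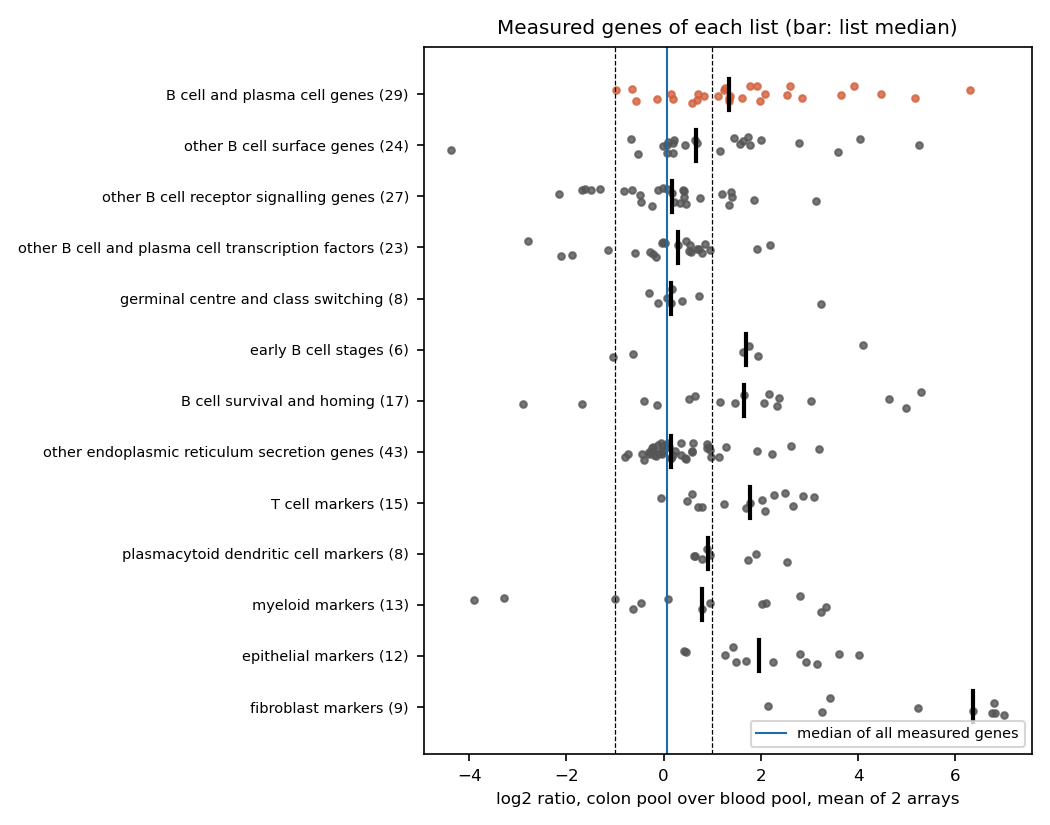
Log2 ratio, colon over blood, mean of both arrays (horizontal axis), for every measured gene (points) of the B cell and plasma cell genes and of 12 other lists, with the number of measured genes in brackets, the list median as a black bar, dashed lines at the 2-fold limits and a blue line at the median of all measured genes. The B cell and plasma cell genes have a median of 1.35, the secretion genes 0.15, the T cell markers 1.77 and the fibroblast markers 6.37.

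Markers of other cell types were read beside these results, and their part in them was not tested. Of 15 measured T cell markers, 10 were higher, or 7 after median centring, and none was lower. Their summed normalised intensity was 10640 to 11910 in the colon pool and 2659 to 3210 in the blood pool. Among the CD3 chains Cd3d was higher, at 1.77 ± 0.01. Cd3e (0.58 ± 0.40), Cd3g (0.79 ± 0.02) and Cd247 (-0.06 ± 0.11) did not pass the rule, and Cd8a and Cd8b1 were not measured. All 9 measured fibroblast markers were higher, with sums of 115700 to 123000 against 1581 to 1659, led by the matrix gene Dcn at 7.01. Of 12 epithelial markers 10 were higher, with sums of 6851 to 7866 against 964 to 1180. In the blood pool 7 of the 12 were not well above background on either array. Epcam, at 0.42 ± 0.37, and Cdh1, at 0.47 ± 0.10, did not pass the rule. Of 8 plasmacytoid dendritic cell markers 3 were higher (Ly6d, Cox6a2 and Klk1), with sums of 32820 to 33350 against 19030 to 19550. Most of each sum came from Siglech, which did not pass the rule, at 0.63 ± 0.02. It read 17440 and 17020 in the colon pool and 11210 and 11120 in the blood pool.

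Of the B cell markers Ms4a1, Cd79a, Cd79b, Pax5 and Ebf1, 4 were measured and 3 were higher, or 1 after median centring. Their sums were 3334 to 3511 in the colon pool and 1253 to 1375 in the blood pool. Most of each sum came from Cd79b, at 2518 and 2805 in the colon pool and 1076 and 992 in the blood pool. Its ratio on array 2 turned to -0.12 after median centring. The 8 plasma cell markers (Jchain, Mzb1, Derl3, Sdc1, Tnfrsf17, Prdm1, Xbp1 and Irf4) had 6 higher members, or 4 after median centring. Their sums were 57480 to 57710 against 23730 to 26100. Most of these sums came from Jchain and from Xbp1, which read 22310 and 21890 in the colon pool and 21500 and 23670 in the blood pool. Of 13 myeloid markers 5 were higher and 2 were lower, or 2 and 2 after median centring. Among the genes of the gates, Itgax (CD11c) was higher by 3.35 ± 0.08 and Ly6c1 was lower, at -3.28 ± 0.09. Cx3cr1, at 0.10 ± 0.25, and Itgam (CD11b), at -0.46 ± 0.33, did not pass the rule. Green fluorescent protein replaced 1 Cx3cr1 allele in the mice of the colon pool alone, and the part of genotype in the Cx3cr1 ratio was not tested.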

How the data were processed

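The members and lists were chosen with earlier results of these data known. The deposited scanner files hold spot mean and local background intensity in linear units, not normalized, and a log10 ratio (red over green) by the scanner software, per the file headers. The authors' deposited value table holds the same log10 ratios turned to colon over blood, with a largest difference of 4.81e-08, and both of its columns have a median of 0. Agilent Feature Extraction is version 10.7.3.1 per the file headers and 10.5.1.1 per the submitters' processing notes. Per the labels' protocols, 25 ng of RNA was amplified with oligo-dT priming. The sources do not state whether the extracts on both arrays were the same, and both arrays lay on 1 slide and 1 scan, so no batch could be tested.

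Of 44397 spots, 43020 were not controls and 0 of these were saturated. Intensities were corrected by normexp (offset 50) and normalized by loess, in which controls and outlier spots had weight 0 (limma 3.58.1, R 4.3.3), and array 2 was turned to colon over blood. Levels were taken after loess and Aquantile, which left the ratios unchanged. Spots were named through RefSeq identifiers for 29529, by the file's own name for 8072, and 5419 stayed unnamed. RefSeq's GRCm38.p6 table served for names and promoters alone, and probes keep the mm9 positions of the files, for which no annotation was used. The brightest measured probe gave a gene's value. Where the blood signal was not well above background, a floor was set for it on each array. It was the dim probe's own signal or the lowest signal well above background, whichever was higher. For Cd79a, Ebf1, Tnfrsf17 and Igk-V32 the probe's own signal was the higher. Their ratios are thus given as measured and are not lower bounds. Genes outside the 32 were named by rule: up to 4 called genes per direction in each list, and the defining markers, of which some are not reported here. Iglon5 and Ighmbp2, which are not immunoglobulin genes, were left out of the immunoglobulin probes.

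Between 52.2% and 58.4% of probes were well above background per pool and array. The 2 arrays limit the precision. In a simulated colon-to-blood comparison of 43020 probes, 47 of 50 probes raised by 1.5 and 48 of 50 lowered by 1.5 on the log2 scale were called, all 50 at a size of 3 in each direction, and 0 of 42820 unchanged probes. It had few changed probes and so does not test loess where many genes change. Changes were put only into brighter probes, and the size of the noise was assumed. The shares recovered therefore do not apply to dim genes such as Cd79a, Ebf1, Spib and Fcrla.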

Additional observations from a re-analysis of the deposited data

How the results depend on the processing

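With 13 alternatives planned, the mean ratio over both arrays reversed for no called member. On array 2 alone, median centring turned Cd79b to -0.12 and Creld2 to -0.49. The count of higher members, 19, became 9 after median centring and 9 with a 4-fold limit, and 19 to 20 with 1 array left out. The count of lower members, 0, became 1 (Pou2f2) with the mean over probes, the value table, the software's ratios, a 1.5-fold limit or array 1 left out, and stayed 0 with array 2 left out. The median of the members, 1.35, was 1.48 without background correction, 1.78 with an offset of 16, 1.20 after median centring and 2.11 with the software's ratios or the value table, and 1.32 to 1.39 with 1 array left out. In the 12 other lists, the 78 higher and 13 lower genes became 53 and 14 after median centring and 42 and 7 with a 4-fold limit. With a 1.5-fold limit the lower genes became 22. The filter on both pools left 26 members, of which 17 were higher, without Ebf1 and Derl3. Leaving the 4-fold limit aside, 7 of the 19 kept their call under all of the other 12 settings (Pou2af1, Blnk, Vpreb3, Cd72, Cd38, Jchain and Mzb1). The cause of these shifts was not tested. No paired analysis was possible because both arrays are labelled as the same comparison and were counted as 1 replicate. Signals near background limit the ratios of Cd79a, Cr2, Fcer2a, Ebf1, Derl3, Vpreb3, Fcrla and Mef2b.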
